A study of Homo sapiens with 8 samples.

Results

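The mRNAs of 10 AP-1 and ATF transcription factors were examined for binding by LARP6, a La-related protein that is known to bind collagen mRNAs. They were JUN, JUNB, JUND, FOS, FOSL1, FOSL2, ATF3, ATF4, ATF5 and ATF6, out of 59661 annotated genes. A region belonged to a gene when its midpoint lay within the GRCh38 bounds of that gene and on its strand. This gave 37 and 39 regions in the control libraries (replicates 1 and 2) and 45 and 58 in the TGFβ1 libraries. They came out of 51273, 39880, 31137 and 54536 regions in all. The authors' list made from both replicates held none of these genes in control and 4 regions in 2 of them, ATF4 and ATF5, in TGFβ1, out of 627 and 1008 listed regions.

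AP-1 is a dimer of JUN and FOS family proteins that binds DNA through a basic leucine zipper, and it is a main nuclear target of the mitogen-activated protein kinases. JUN activity is part of the activation of hepatic stellate cells, the cells that lay down collagen in the injured liver. The ATF proteins share the leucine zipper but serve mainly in stress responses. ATF4 and ATF5 are made when phosphorylation of the initiation factor eIF2α changes the use of upstream reading frames in their mRNAs. ATF6 is a sensor of the endoplasmic reticulum that is cleaved to release a transcription factor.

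LARP6 sites were mapped by eCLIP, in which ultraviolet light (254 nm, 400 mJ/cm2) joins RNA to protein before trimming, immunoprecipitation and sequencing, with a size-matched input for each library. Wild-type human hepatic stellate cells were grown in DMEM with 10% serum and either received TGFβ1 at 5 ng/ml or were controls, which carry both the label untreated and the label DMSO. Each of these 2 conditions had 2 anti-LARP6 libraries and 2 inputs, so 8 samples in all. The labels call the cells a line without saying which, and the name and source of the cells are not given in the sources used here. Whether replicates were separate cultures is not stated, and their spread may be technical. Of 13 fixed markers of stellate cells and myofibroblasts, 10 had tested regions, with 490 to 719 per library, but DES, LRAT and RGS5 had none. No hepatocyte marker of 8 had any. Of 6 endothelial markers KDR alone had regions, 2 in TGFβ1 replicate 2. Of 6 macrophage and leukocyte markers CD68 alone had regions, 2 and 4 in replicates 1 and 2 of each condition. The cholangiocyte markers KRT7 and SOX9 had 2 and 3 regions in control and 15 and 18 in TGFβ1 libraries, of which KRT7 made 13 and 17, while KRT19 and EPCAM had none. The part of such cells in the values below was not tested.

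Regions are called clusters here. For each cluster the authors deposited a log2 fold over input and a −log10 p, which are quoted as their values. A cluster counted as enriched when its log2 fold and its −log10 p both reached 3. Read counts are not part of these lists. The depth behind a value is therefore unknown, and only the number of clusters tested in a library can be given. How many clusters a gene has depends on how much of its RNA is present. In these bulk samples fewer cells making an mRNA and less mRNA per cell cannot be told apart.

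The −log10 p was under 1 in 83.8% and 84.6% of member clusters in control and 77.8% and 65.5% in TGFβ1 replicates 1 and 2. Over all clusters it was under 1 more often in each library, in 95.4%, 91.7%, 87.0% and 83.4%. Enriched clusters in these genes were found in TGFβ1 libraries and lay in ATF4 and ATF5. None of 37 and 39 clusters was enriched in control replicates 1 and 2, which allows a share of up to 8.11% and 7.69%. Among all clusters of these libraries 1.21% and 2.09% were enriched, so a share at that background would not have been detectable. In TGFβ1 replicates 1 and 2, 4 of 45 (8.89%, 95% Wilson interval 3.51 to 20.7) and 7 of 58 (12.1%, interval 5.97 to 22.9) were enriched. The share over all clusters was 2.69% and 3.64% there. The intervals cover counting error only, and neighbouring clusters of 1 gene are not independent. The mean share was 10.5 percentage points higher in TGFβ1 (exact permutation test, two-sided, p = 0.333, the smallest that 2 libraries against 2 can give).

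**Figure D1:**
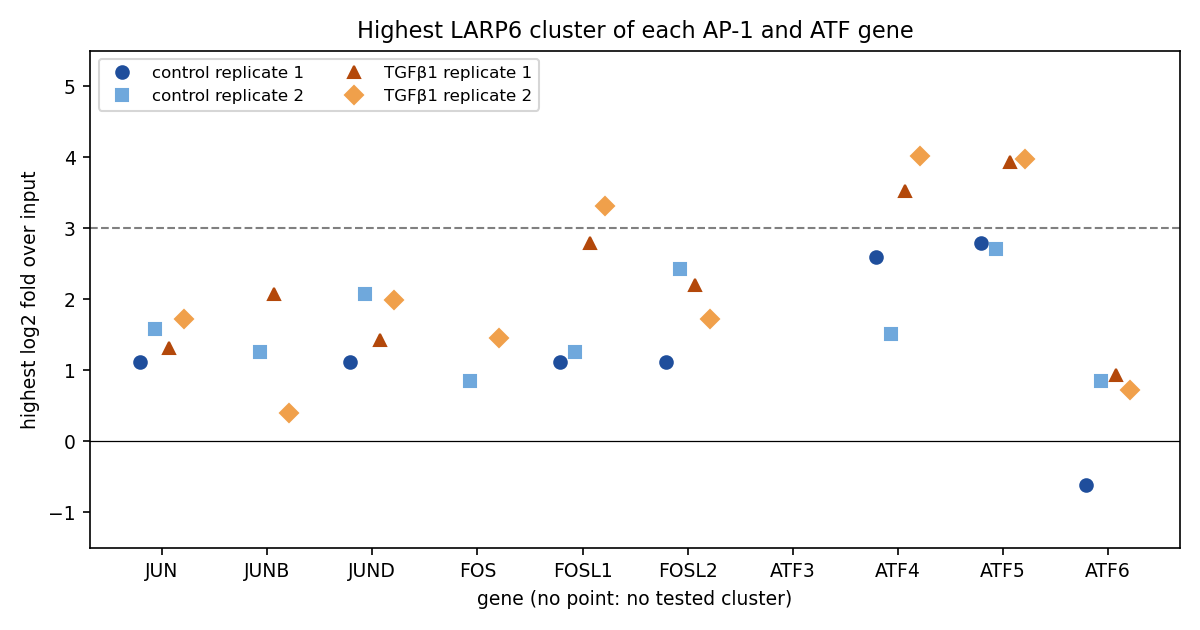
Highest log2 fold over input among the tested clusters of each gene (vertical axis, log2 units) in each of the 4 anti-LARP6 libraries, with the dashed line at the fold limit of 3 and no point where a gene had no tested cluster. ATF4 and ATF5 lie above the line in both TGFβ1 libraries and below it in both control libraries, and FOSL1 crosses it in TGFβ1 replicate 2.

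By gene, the authors' lists held 0 of the 7 members with a tested cluster in both control libraries, where 3.88% of such protein-coding genes had a listed peak. In TGFβ1 they held 2 of 8, against 7.04%. With so few members these counts are given as a description only.

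ATF4, the effector of the integrated stress response, is encoded on the plus strand of chromosome 22 (39520559 to 39522686, 2128 nt). Both of its listed TGFβ1 peaks abut each other, at 39521455 to 39521471 and 39521472 to 39521528. They thus form 1 site that starts 896 nt from the 5′ end of the gene and ends 1158 nt from its 3′ end. The authors' deposited table gives these peaks log2 folds of 3.67 and 3.77 and −log10 p-values of 4.47 and 5.22. By fold the higher peak ranked 733 of the 1008 peaks of that list, so it was in its lower part. At this place the highest log2 fold of a cluster was 2.60 and 1.51 in control replicates 1 and 2 and 3.53 and 4.02 in TGFβ1 replicates 1 and 2. The control libraries did not overlap the TGFβ1 libraries, but they differed from each other by more than the latter did. The highest −log10 p among these clusters was 2.00 and 1.28 in control and 5.22 and 11.6 in TGFβ1, so no control value reached the p limit. Within their own libraries, the control clusters of highest fold here exceeded 97.5% and 82.1% of all clusters in replicates 1 and 2. Those of TGFβ1 replicates 1 and 2 exceeded 97.8% and 97.9%. By rank, control replicate 1 was thus near the TGFβ1 libraries and control replicate 2 was lower.

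The remaining ATF4 clusters made 11 further places, counting overlapping clusters of all libraries as 1 place, and none was enriched in any library. Just downstream, at 39521620 to 39521670, TGFβ1 replicate 2 had a log2 fold of 2.48 with a −log10 p of 3.71, past the p limit alone, and control replicate 1 had 2.12. The 3′ end of the gene (39522568 to 39522662) was covered in every library at a log2 fold of 0.07 and −0.45 in control and 0.32 and 0.52 in TGFβ1. Cover near the 3′ end was thus present in all 4 libraries with little or no enrichment.

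**Figure D2:**
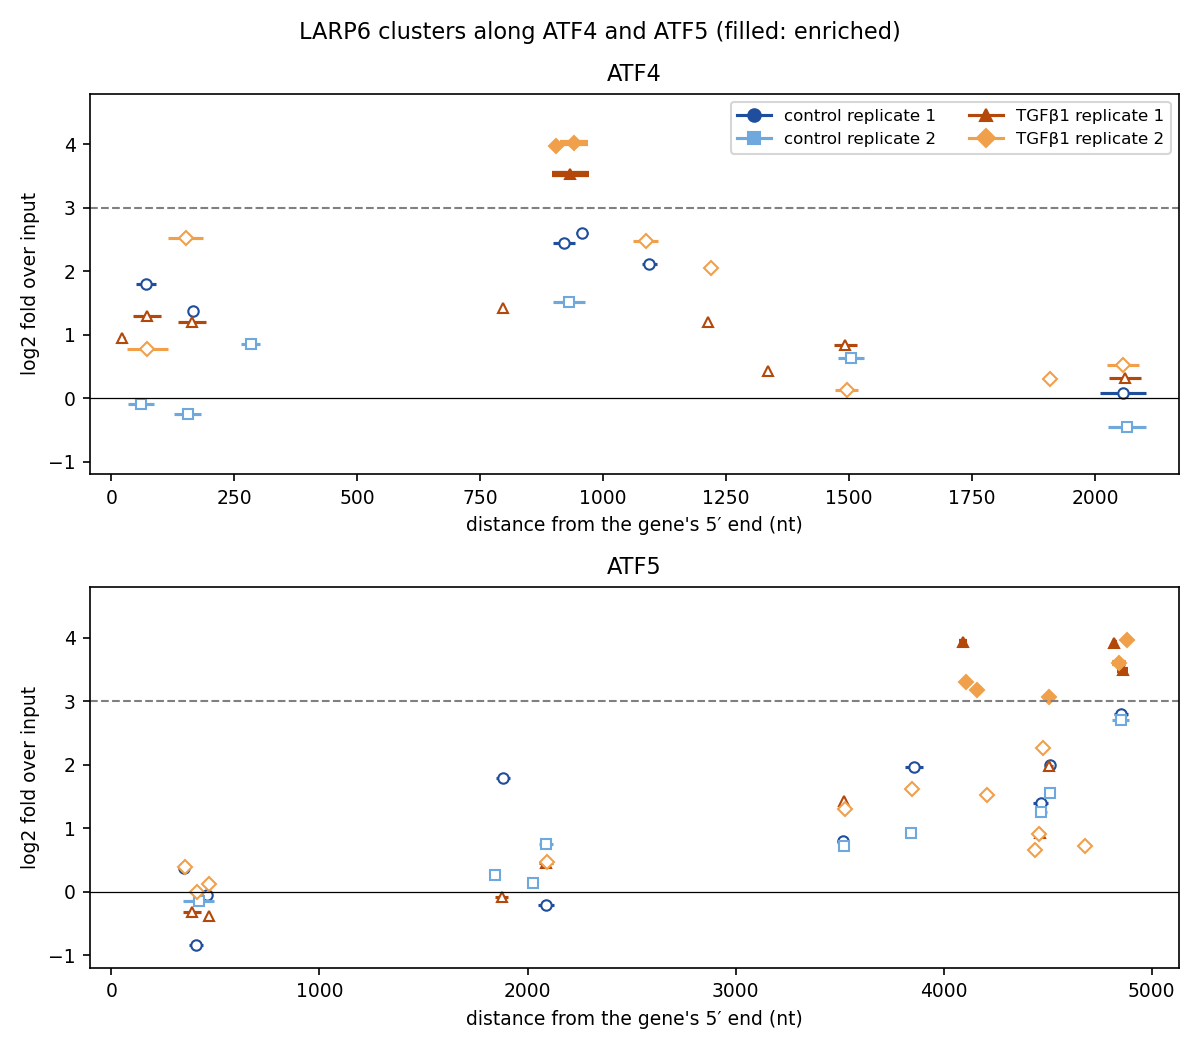
Tested clusters of ATF4 (top) and ATF5 (bottom) by distance from the 5′ end of the gene in nt (introns included) and log2 fold over input, with bars for the width of a cluster, colours and symbols for the library and filled symbols for enriched clusters. In ATF4 the filled symbols sit at 1 place near the middle of the gene, and in ATF5 they lie toward its 3′ end.

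ATF5, a relative of ATF4 under similar translational control, is encoded on the plus strand of chromosome 19 (49928906 to 49933935, 5030 nt). Its listed TGFβ1 peaks lay at 49933713 to 49933738 and 49933783 to 49933795, and the latter ends 140 nt from the 3′ end. They are 2 sites where peaks at most 20 nt apart are joined. Enriched clusters also covered the stretch between these peaks, with log2 folds of 3.49 and 3.61 in TGFβ1 replicates 1 and 2. In each control library 1 cluster overlapped both peaks. Overlapping clusters of all libraries made 1 place here, 49933713 to 49933796, so the peaks need not be separate sites. The authors' deposited table gives log2 folds of 4.05 and 3.73 and −log10 p-values of 14.6 and 10.0, and ranks 644 and 753 of 1008. At the first of them the overlapping cluster of control replicates 1 and 2 reached 2.79 and 2.70, and that of TGFβ1 replicates 1 and 2 reached 3.92 and 3.61 on the log2 scale. The deposited 4.05 of this peak is thus above the value of each replicate. The groups did not overlap, and the control replicates were close to each other.

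The site was also covered strongly in control. Its control clusters passed the p limit, with −log10 p-values of 5.98 and 8.03, and missed the fold limit. Within their own libraries they had a higher fold than 98.0% and 96.2% of all clusters. The cluster at this peak in TGFβ1 replicate 1 had a higher fold than 98.5% of its library, and that in replicate 2 than 97.1%. The site thus stood near the top of every library, while the fixed limit of 3 was passed in TGFβ1 alone.

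Upstream of it, ATF5 held further enriched places in TGFβ1. At 49932980 to 49933020, TGFβ1 replicates 1 and 2 had enriched clusters of log2 fold 3.94 and 3.31 (−log10 p of 3.72 and 4.10), and no control library had a tested cluster there. This place was not in the authors' list although both replicates had an enriched cluster in it. The clusters of replicates 1 and 2, at 49932980 to 49933017 and 49933011 to 49933020, overlapped only in part. At 49933335 to 49933429 the highest log2 fold was 2.00 and 1.56 in control and 1.98 and 3.07 in TGFβ1, with −log10 p-values up to 2.60, 3.04, 5.78 and 21.4. These values overlapped between conditions, and TGFβ1 replicate 2 alone was enriched.

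The hairpin of the microRNA gene MIR4751 lies inside ATF5 on the same strand (49933064 to 49933137). TGFβ1 replicate 2 had an enriched cluster at 49933060 to 49933068 that reaches into its first bases, at a log2 fold of 3.18. A cluster of 1.53 at 49933107 to 49933119 lay wholly within the hairpin. That stretch is shown because a fragment there could stem from either RNA, with the 13 bases of the cluster in capitals (RefSeq, GRCh38.p14, chr19:49933099-49933128, plus strand).
MIR4751 in ATF5: agggguguGGCUUCUGGGGGCuggucuuca

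No cluster in the first 500 nt of these genes was enriched. This part of the gene, counted with introns included, is of interest because the known LARP6 site of collagen mRNAs lies near the 5′ end of those mRNAs. The members had 8 and 9 clusters there in control and 12 and 14 in TGFβ1 replicates 1 and 2. Over all protein-coding genes 1.89% of such clusters were enriched in control and 2.71% in TGFβ1, and with so few clusters a share at that background would not have been detectable. The highest log2 fold in this window was 1.79 and 1.26 in control and 2.79 and 3.31 in TGFβ1, the latter pair in FOSL1.

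RefSeq start sequences were found for 9 of the 10 genes. For 4 genes with a cluster in the first 50 nt after an annotated start, 30 nt of the RNA strand are shown 5′ to 3′, to let the covered letters be read. Capitals mark the bases inside the cluster. The clusters had log2 folds of 0.94 for ATF4 (TGFβ1 replicate 1), 0.38 for ATF5 (control replicate 1), 2.08 for JUNB (TGFβ1 replicate 1) and 1.23 for JUND (TGFβ1 replicate 2). Their positions on GRCh38.p14 are chr22:39520567-39520596, chr19:49929224-49929253 and chr19:12791504-12791533 on the plus strand, and chr19:18281583-18281612 on the minus strand.
ATF4: ctactttgCCCGCCCACAGAtgtagttttc
ATF5: cagtctctTCTCACTACAGTGTCGCCGCCT
JUNB: aggccagcCTCGGAGCCAGCAGGGAGCTGG
JUND: gccagTGGAGGGCCGGGCGCTGCGGCCGCG
The first 50 nt were 88% G and C in JUND, 72% in JUNB, 64% in FOS and FOSL2 and 62% in JUN. They were 52% at both starts of ATF4, 48%, 56% and 62% at the 3 starts of ATF5, 42% and 54% at those of ATF3 and 46% in ATF6. The median over 35116 starts of the table was 60%, so the members lie on both sides of it. None of the 4 clusters shown was enriched.

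The JUN family gave no enriched cluster. JUN, the founding AP-1 subunit, has no introns and lies on the minus strand of chromosome 1 (58780791 to 58784047). Its highest log2 fold was 1.12 and 1.58 in control and 1.32 and 1.72 in TGFβ1 replicates 1 and 2, and these values overlapped between conditions. JUN had 4 tested clusters in each control library, 6 in TGFβ1 replicate 1 and 7 in TGFβ1 replicate 2. The one place of JUN found in every library (58781582 to 58781664) was below its input throughout, with log2 folds of −1.43, −0.74, −0.74 and −0.72.

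JUND, the most broadly expressed JUN protein, lies on chromosome 19 (18279694 to 18281622, minus strand). It was covered at the same 2 places in all libraries. From 18280500 to 18280561 the log2 folds were 1.12 and 2.07 in control and 1.20 and 1.72 in TGFβ1, which overlapped. From 18281355 to 18281607, which begins 15 nt from the 5′ end, they were 0.79 and 1.09 in control and 1.13 and 2.00 in TGFβ1. The second place was higher in both TGFβ1 libraries, by a margin of less than the difference between the replicates. JUNB, an AP-1 subunit induced early by growth factors, had no cluster in control replicate 1, 1 cluster in replicate 2 (1.26), and 4 and 3 in TGFβ1, with highest log2 folds of 2.08 and 0.40. HOOK2 overlaps JUNB on the opposite strand, and no cluster of that strand was counted.

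**Figure D3:**
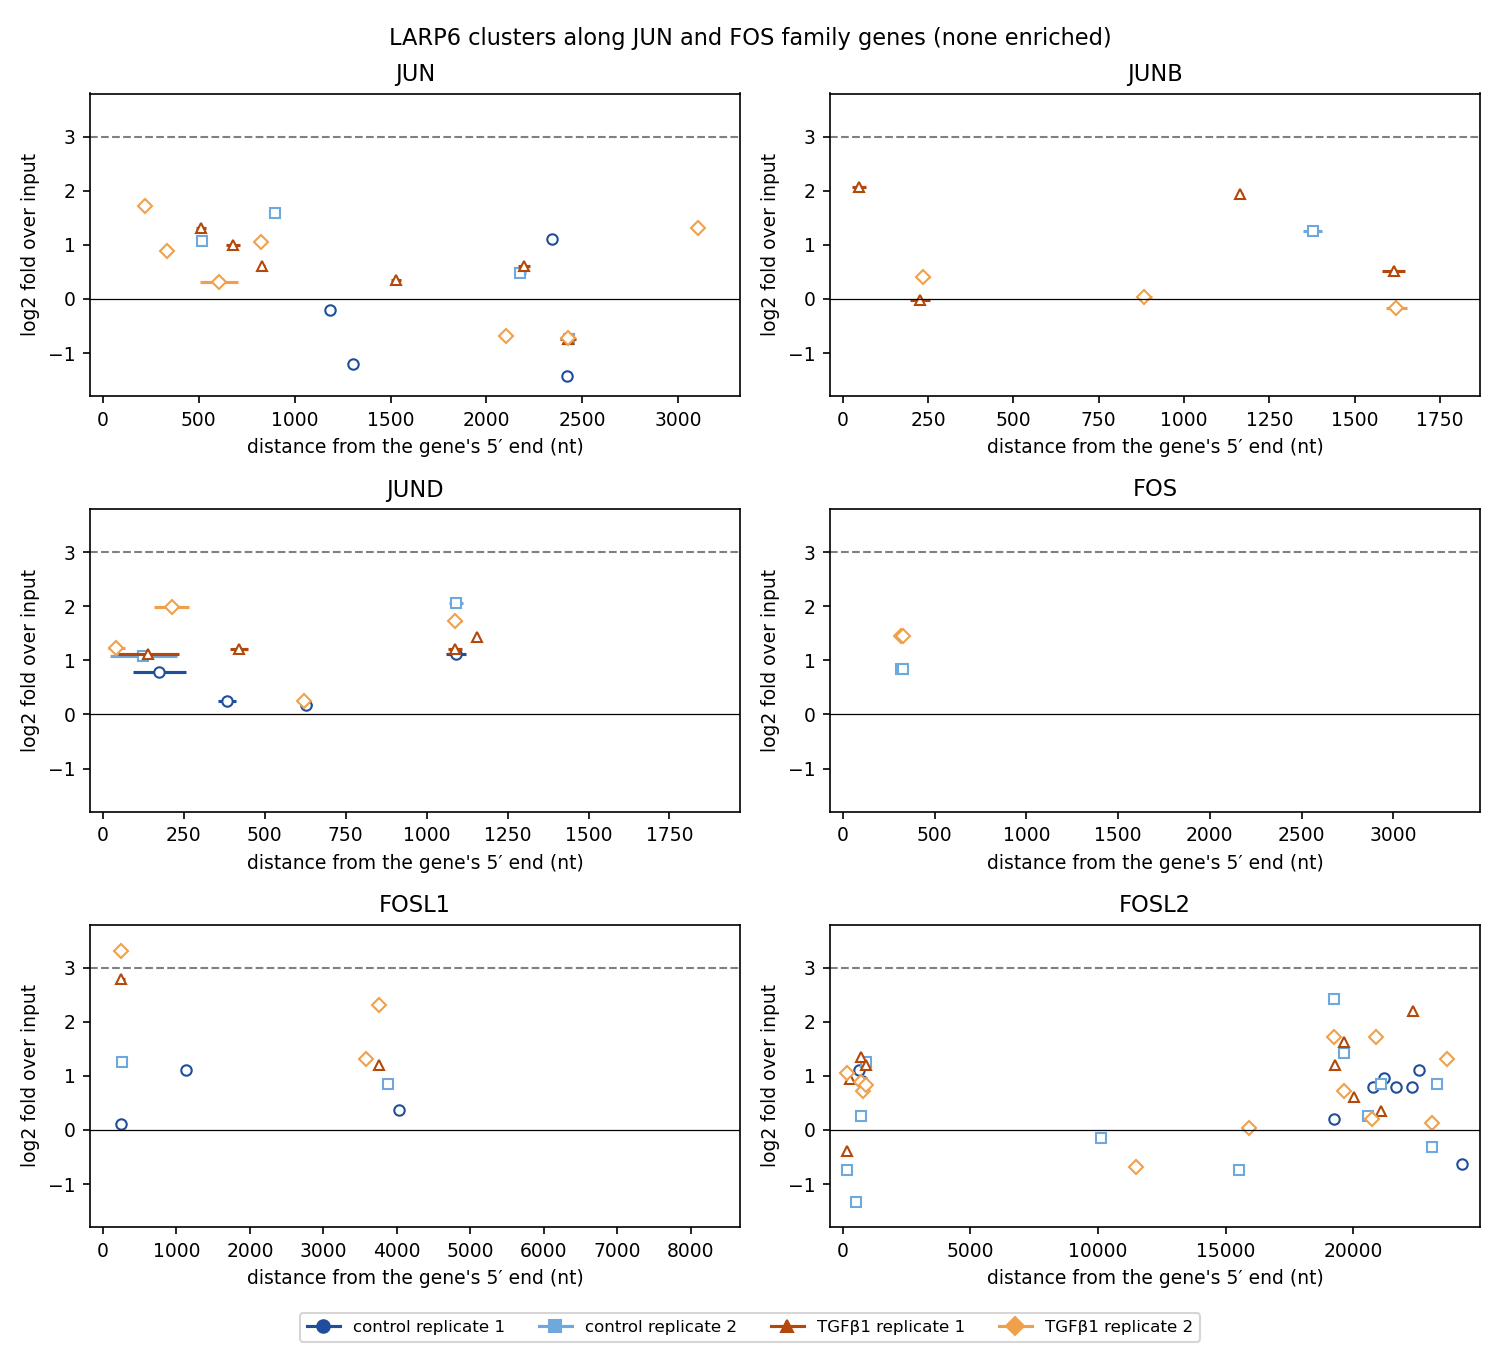
Tested clusters of the JUN and FOS family genes by distance from the 5′ end of the gene in nt (introns included) and log2 fold over input, with symbols for the library and a dashed line at the fold limit of 3. All symbols are open because no cluster was enriched, and only FOSL1 crosses the line, in TGFβ1 replicate 2 at 3.31.

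FOSL1, which encodes FRA1, came closest to enrichment among the FOS family. Its place at 65900247 to 65900342 on chromosome 11 (minus strand) begins 203 nt from the 5′ end and was found in every library. The log2 fold there was 0.12 and 1.26 in control and 2.79 and 3.31 in TGFβ1 replicates 1 and 2, with no overlap between conditions. The −log10 p-values were 0 and 0.47 in control and 1.29 and 2.04 in TGFβ1, so TGFβ1 replicate 2 passed the fold limit and missed the p limit. FOSL1 had 2 or 3 tested clusters in each library.

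FOSL2, which encodes FRA2, had 9 and 12 clusters in control and in TGFβ1 replicates 1 and 2 alike. They made 24 places over 24460 nt of chromosome 2, of which 2 were found in every library and 15 in a single one. Its highest log2 fold was 1.12 and 2.43 in control and 2.20 and 1.72 in TGFβ1, with no −log10 p above 0.99. FOS, the immediate early subunit, had 2 adjoining clusters at 75279141 to 75279168 on chromosome 14 in replicate 2 of each condition and none in replicate 1. Their log2 fold was 0.85 for control and 1.46 for TGFβ1, with −log10 p-values of 0 and 0.79. The control value is the most common fold of its library, shared by 25.1% of clusters.

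ATF3 and ATF6 carried little or nothing. ATF3, an ATF protein induced by many stresses, had no tested cluster in any library, so its binding could not be examined. ATF6 spans 197751 nt of chromosome 1 and had 1 cluster in each library except TGFβ1 replicate 2, which had 2. All 5 lay at different places, and their log2 folds ran from −0.62 to 0.94.

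The TGFβ1 comparison was made on the highest log2 fold of each gene in each library. Of the 10 members, 7 had a cluster in all 4 libraries. FOSL1, ATF4 and ATF5 were higher in both TGFβ1 libraries than in both control libraries, and none was lower in both. That is 3 of 7, where 42.3% of 4321 protein-coding genes with clusters in all libraries were higher and 5.44% were lower. The members' count is thus at the background, and the median difference over those genes was itself 0.62 on the log2 scale. The difference was 1.86 for FOSL1, 1.72 for ATF4 and 1.21 for ATF5, larger than in 94.0%, 91.8% and 78.8% of genes. For each of these 3 genes the exact permutation test gave its smallest two-sided p of 0.333 (0.778 after Benjamini-Hochberg adjustment over 7 genes), so no change was shown by this test. The control mean of ATF5 was 2.75 ± 0.06 and its TGFβ1 mean 3.96 ± 0.02 (SD, n = 2 libraries each), and those of ATF4 were 2.06 ± 0.77 and 3.77 ± 0.35. FOSL1 had means of 1.19 ± 0.10 and 3.05 ± 0.37, but its control values came from different places. At the FOSL1 place that gave the TGFβ1 values, control replicates 1 and 2 had log2 folds of 0.12 and 1.26. For ATF5 the value of TGFβ1 replicate 1 came from the place at 49932980, upstream of the listed peaks. The SD of 0.02 is thus not the spread of replicates at the same place. At the listed ATF5 peaks the TGFβ1 means were 3.77 ± 0.22 and 3.73 ± 0.34 (SD, n = 2 libraries). The difference was smaller when all clusters of a gene were averaged in place of taking the highest. For ATF4 it was then 0.50 (exact permutation test, p = 0.667), with means of 1.73 and 0.37 in control and 1.24 and 1.86 in TGFβ1, which overlapped. For ATF5 it was 0.66, with 1.00 and 0.91 in control and 1.54 and 1.69 in TGFβ1, which did not overlap.

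JUN, JUND and FOSL2 differed by 0.17, 0.12 and 0.19, less than the spread between their replicates. Their sign turned when the median of each library was subtracted, to −0.10, −0.15 and −0.08. ATF6 differed by 0.72, with 1.04 as the SD of its control libraries. Among members with clusters in every library, the order by mean highest log2 fold in TGFβ1 was ATF5, ATF4, FOSL1, FOSL2, JUND, JUN and ATF6. JUNB, with no cluster in control replicate 1, was left out of this order. ATF5 and ATF4 did not differ beyond their spread, nor did FOSL2, JUND and JUN. JUN and ATF4 also had more tested clusters in both TGFβ1 than in both control libraries, as did 17.0% of the 4321 genes.

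**Figure D4:**
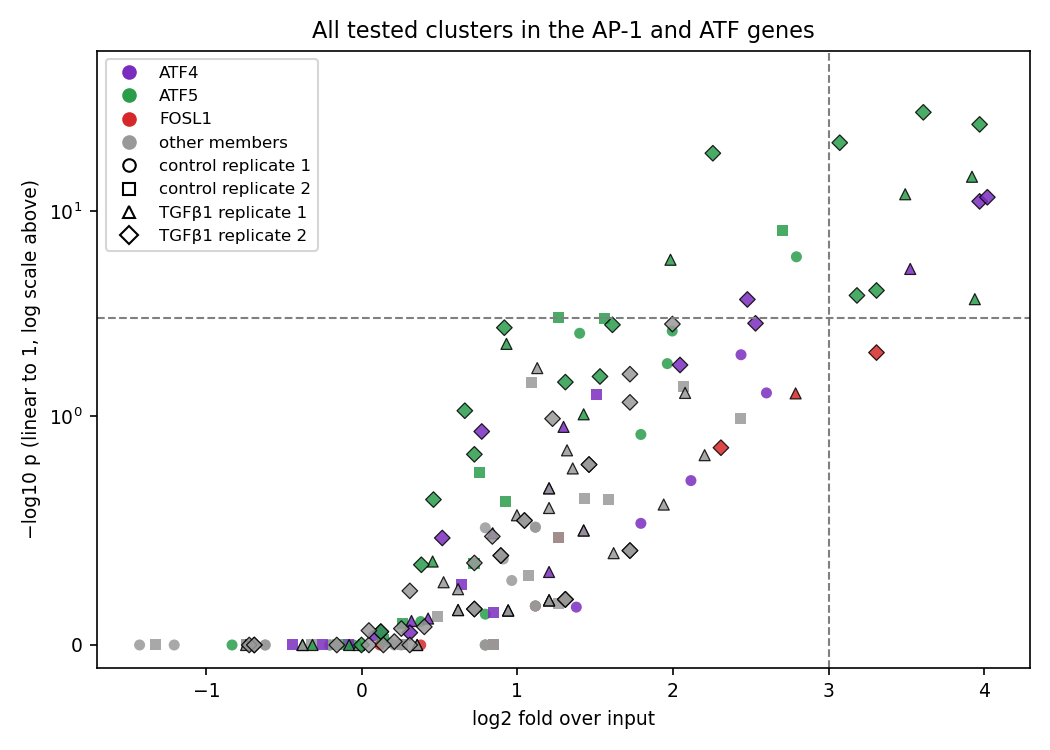
Log2 fold over input (horizontal axis) and −log10 p (vertical axis, linear up to 1 and logarithmic above) of every tested cluster in the 10 genes, coloured by gene and shaped by library, with dashed lines at both limits. The upper right field holds TGFβ1 clusters of ATF4 and ATF5, 4 from replicate 1 and 7 from replicate 2. The ATF5 cluster of highest fold in control replicates 1 and 2 lies just left of it, at 2.79 and 2.70. The other ATF5 clusters of control lie further left.

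Among 4321 protein-coding genes, those with the highest log2 fold over the 4 libraries most like ATF4 by Euclidean distance were UBA2 (distance 0.49), BCAS3 (0.57), ATF6B (0.58), NACC2 (0.65) and CARHSP1 (0.66). ATF6B encodes the close relative of ATF6, and its values were 2.25 and 1.85 in control and 3.20 and 3.97 in TGFβ1, with no listed peak. Among the genes nearest to ATF5 were CTIF (0.33), ARNT2 (0.46), INTS1 (0.48) and TM9SF1 (0.60). CTIF, a factor in cap-dependent translation, had 3.04 and 2.72 in control and 3.81 and 3.79 in TGFβ1.

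Genes that act with these factors were read from lists that were chosen with earlier results of these data known. The counts of these lists stand beside 3.88% of all tested protein-coding genes with a listed peak in control and 7.04% in TGFβ1. In the integrated stress response, 1 of 17 tested genes had a listed control peak and 3 of 16 a listed TGFβ1 peak. PPP1R15A, which encodes the phosphatase subunit GADD34 that reverses eIF2α phosphorylation, was in both lists, with 2 and 3 peaks. Its highest log2 fold was 3.47 and 4.82 in control and 6.50 and 7.04 in TGFβ1 replicates 1 and 2, so every library was past the fold limit and TGFβ1 was higher. SLC3A2, a subunit of amino acid transporters, had 2 TGFβ1 peaks, with highest folds of 2.55 and 3.85 in control and 3.90 and 4.60 in TGFβ1. TRIB3, a pseudokinase gene induced by ATF4, had 1 TGFβ1 peak, with 2.38 and 2.58 against 3.16 and 4.22. The median difference over 15 such genes was 1.10, against 0.62 over all 4321 genes. Of the 15, 11 were higher in both TGFβ1 libraries and 1 was lower, against 42.3% and 5.44% of all genes.

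Of other leucine zipper factors, 0 of 15 tested genes had a listed control peak and 2 of 16 a listed TGFβ1 peak, namely ATF7 and NFE2L1, where 3.88% and 7.04% of all tested genes were listed. ATF7 had 3.32 and 4.26 in control and 4.08 and 6.06 in TGFβ1, which overlapped. NFE2L1, a stress-responsive leucine zipper factor, had 2.12 and 3.07 against 3.79 and 2.78, which also overlapped. Of kinases and phosphatases of the JNK, ERK and p38 pathways the lists held 0 of 12 and 1 of 10. That gene was MAPKAPK2, a kinase activated by p38, with 3.38 and 4.02 in control and 3.57 and 5.70 in TGFβ1. Of ATF6 activation and unfolded protein response genes none of 11 and 16 was listed, and of other immediate early genes none of 11 and 12. AP-1 target genes gave 1 of 13 in each condition, in both cases MMP14, a membrane-bound matrix protease, with highest folds of 4.10 and 2.99 in control and 3.37 and 2.61 in TGFβ1. In that group 1 of 11 genes was higher in both TGFβ1 libraries and 2 were lower, with a median difference of 0.08. In the unfolded protein response 8 of 11 were higher, in the kinase pathways 6 of 9, among other leucine zipper factors 6 of 15 and among immediate early genes 5 of 10, to be read against the 42.3% of all genes.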

How the data were processed

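The authors deposited 1 list of clusters per anti-LARP6 library and 1 list per condition made from both replicates. Files of the inputs alone were not used here. Per the submitters' processing notes, cutadapt, STAR and UMI-tools were used, with GRCh38 and without stated versions. The peak caller, and how replicates were combined, are not given in the sources used here. No file has a header. From their range, the deposited log2 values were read as the authors' log2 fold over input and the deposited −log10 values as −log10 p, capped at 400.

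Gene bounds came from RefSeq (GRCh38.p14). Strand came from its table of start sequences, or for genes outside it, FOSL1 among them, from the majority of clusters. A cluster could count in several genes. The same rule was used for members and background. The members and lists were chosen with earlier results of these data known. Named genes were all members, up to 6 genes per list with a listed peak and the 5 nearest genes by pattern, of which 1 is not reported here. Code was tested on simulated data. Tools were matplotlib 3.10.9, SciPy 1.17.1, pandas 2.3.3 and NumPy 2.4.6 under Python 3.11.15.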

Additional observations from a re-analysis of the deposited data

How the results depend on the processing

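The fold limit mattered most. With a limit of 2 and enrichment in both libraries, 1 member (ATF5) counted in control in place of 0, and 2.63% of member clusters were enriched there in place of 0. With a limit of 4, 1 member (ATF5) kept a listed TGFβ1 peak in place of 2, and 0.862% of TGFβ1 member clusters were enriched in place of 10.5%. The cluster still enriched at that limit was in ATF4 (4.02, TGFβ1 replicate 2), and no ATF5 cluster of a library reached it. With a −log10 p limit of 5 the share of enriched TGFβ1 member clusters was 7.64%. Joining peaks within 50 nt gave 1 site in ATF5 in place of 2. The other counts of members and shares moved by less than 1.5 times or the spread between replicates, with each replicate left out, any overlap, either strand or ATF6 left out.

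Differences in the highest log2 fold kept their sign in 40 of 50 settings over 7 genes. Those of FOSL1, ATF4 and ATF5 kept it in each setting that could be run, but not their size. With the mean over the clusters of a gene, ATF4 gave 0.50 in place of 1.72 (exact p = 0.667 in place of 0.333), ATF5 0.66 in place of 1.21 and FOSL1 1.36 in place of 1.86. Without TGFβ1 replicate 2, ATF4 gave 1.47 (exact p = 0.667). With library medians subtracted, JUN, JUND and FOSL2 gave −0.097, −0.15 and −0.079. With 1 replicate left out, JUN ran from −0.062 to 0.41, JUND from −0.36 to 0.60, FOSL2 from −0.47 to 0.85 and ATF6 from −0.015 to 1.45. The cause was not tested. The setting of clusters past the p limit gave a value for ATF5 alone. With the replicate number as a block, the difference in enriched share was 10.5 points (exact sign-flip test, p = 0.5, the smallest possible) and no call changed. Deviations of same-numbered libraries correlated at 0.05 over 4321 genes, so the numbers were not taken to pair libraries.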

Other observations

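The deposited folds take few values. The 51273 clusters of control replicate 1 hold 1907 distinct log2 folds, and 28.8% of them share the value 0.38. In control replicate 2 and TGFβ1 replicates 1 and 2, 25.1%, 19.6% and 15.4% share the most common value. The highest fold of JUN, JUND, FOSL1 and FOSL2 in control replicate 1 is the same number, 1.12, which is also the median over 4321 genes in that library. In control replicates 1 and 2, the highest fold of 6 of 7 and 7 of 9 members with a cluster is a value carried by at least 100 clusters of the library, against 4 of 8 and 6 of 9 in TGFβ1. Ties of this kind limit how finely weakly covered members can be ranked.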
